A study of Mus musculus with 4 samples.

Results

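The 9 genes described here encode ligands, a co-receptor, secreted antagonists and a nuclear effector of Nodal and activin signalling. They were chosen by gene name (Nodal, Gdf3, Inhba, Inhbb, Tdgf1, Lefty1, Lefty2, Fst and Foxh1), and all 9 were found among the 51826 genes of the deposited table. RNA was sequenced from mouse embryonic stem cells driven towards mesoderm and collected on day 3. The Stk40-/- group (2 libraries) lacks Stk40, which encodes a pseudokinase, and the wild-type group (2 libraries) is its control, both on a C57BL/6 background. Before differentiation all cells had been kept on fibroblast feeders with LIF, CHIR99021 and PD0325901 and had been passaged once on gelatin. All 4 libraries then received BMP4 at 10 ng/ml for 2 days in N2B27 medium, followed until collection by medium with 15% serum replacement, the GSK3 inhibitor CHIR99021 at 1 uM and 0.5% DMSO. No activin or Nodal protein is listed among the additions. How many stem cell lines or clones stand behind each genotype, and whether the 2 libraries of a genotype came from separate cultures, the labels do not say. P-values therefore measure only the spread between these libraries, which may be technical.

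Nodal is a secreted ligand of the TGF-beta family that the mouse embryo needs to form the primitive streak and to pattern mesoderm and endoderm. With the co-receptor encoded by Tdgf1 (also called Cripto) it binds type I and type II activin receptors, which phosphorylate SMAD2 and SMAD3. These enter the nucleus with SMAD4 and act with DNA-binding partners such as FOXH1. The Lefty genes are known Nodal targets whose proteins block the ligand and its co-receptor, so that the pathway restrains itself. Activins are dimers of inhibin beta subunits that use the same receptors without the co-receptor, and follistatin, the product of Fst, binds and neutralises them.

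Expression is given in TPM, a transcript abundance that the authors scaled for transcript length and library size, so levels of different genes can be set side by side. These values do not keep sequencing depth, so no counting interval is given. Fold changes are log2 differences of Stk40-/- over wild-type libraries after adding 1 TPM to each value, so changes of low genes are understated. Testing with limma was limited to genes whose mean over the 4 libraries was 1 TPM or more, and a gene was called at a Benjamini-Hochberg adjusted p under 0.05 over all 15739 genes tested. Of the 9 genes 7 met this filter, and Inhba and Inhbb did not. The call rate in limma was 0% of all tested genes higher and 0% lower in Stk40-/- cells (smallest adjusted p = 0.114), and an unadjusted p under 0.05 was reached by 11.0%. None of the values below is therefore a call, and the words higher and lower describe the libraries measured.

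The labels and the cells were checked with genes outside the pathway. Stk40 was at 3.54 and 3.17 TPM in the Stk40-/- libraries, against 28.9 and 39.9 TPM in the wild-type libraries (log2 fold change -3.01, limma adjusted p = 0.139). The summed level of 12 primitive streak and nascent mesoderm markers was 275 to 426 TPM in Stk40-/- cells and 652 to 1271 TPM in wild-type cells, and most of it was T, the brachyury gene. Among the later mesoderm markers of this list Mesp1, Kdr and Pdgfra were under 1 TPM in every library, Tbx6 was at 0.358 and 0.661 TPM in Stk40-/- cells and at 2.33 and 0.468 TPM in wild-type cells, and Msgn1 was at 0.975 and 0 TPM in Stk40-/- cells and at 90.6 and 7.22 TPM in wild-type cells. The pluripotency gene Pou5f1 was at 372 to 465 TPM in Stk40-/- cells and 370 to 473 TPM in wild-type cells, so pluripotency transcripts were present in cells labelled mesoderm-like. Summed levels of the other marker lists were 868 to 892 TPM in Stk40-/- cells and 651 to 810 TPM in wild-type cells for 8 pluripotency genes, 272 to 306 against 140 to 198 TPM for 5 primed epiblast genes, and 84.4 to 118 against 72.3 to 79.9 TPM for 5 neuroectoderm genes. They were 18.8 to 23.3 TPM in Stk40-/- cells and 32.9 to 42.0 TPM in wild-type cells for 6 feeder fibroblast genes, 366 to 422 against 498 to 750 TPM for 6 trophoblast genes, 6.87 to 6.89 against 10.3 to 10.5 TPM for 6 definitive endoderm genes, and 7.63 to 9.92 against 9.34 to 11.4 TPM for 6 extraembryonic endoderm genes. Most of the trophoblast sum was the keratin gene Krt8, at 408 and 359 TPM in Stk40-/- cells and at 723 and 476 TPM in wild-type cells. No marker in these lists was at 0 in all 4 libraries.

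The 7 tested genes had means over the 4 libraries of 27.0 TPM (Gdf3) or more, while the activin subunit genes Inhba and Inhbb were under 1 TPM in every library. Tdgf1 and Lefty1 were the highest of the 9 genes, with means over the 4 libraries of 223 and 233 TPM that exceeded those of 96.2% and 96.4% of tested genes. In Stk40-/- cells the order of mean levels was Tdgf1, Lefty1, Foxh1, Lefty2, Nodal, Fst and Gdf3, and in wild-type cells it was Lefty1, Tdgf1, Fst, Lefty2, Foxh1, Nodal and Gdf3. The libraries of Tdgf1 and Lefty1 overlapped in either genotype and those of Fst and Lefty2 in wild-type cells, while the other neighbours in each order did not overlap. Fst was thus the sixth in Stk40-/- cells and the third in wild-type cells.

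**Figure D1:**
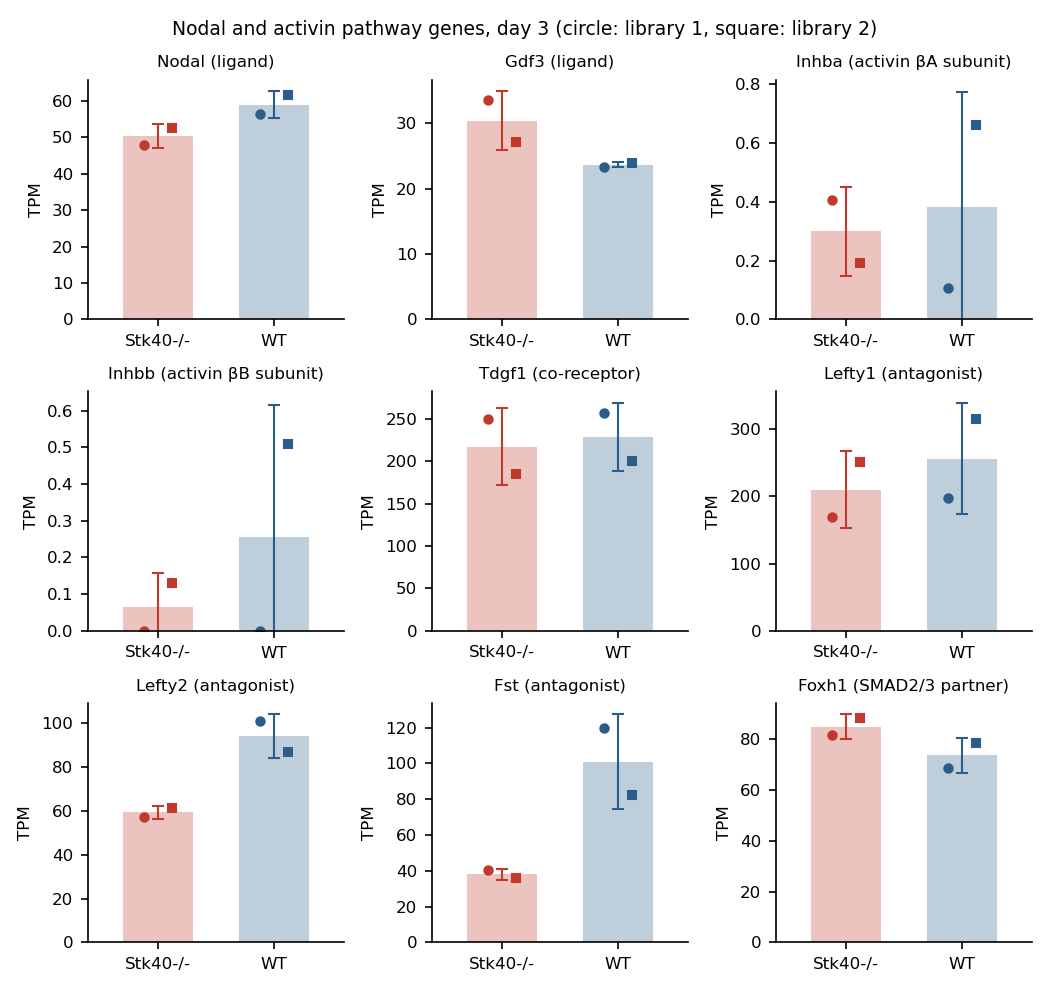
TPM of the 9 genes in each library, on axes that start at 0, with Stk40-/- to the left of wild type (WT). Bars are means, lines the SD of 2 libraries, and circles and squares libraries 1 and 2. Fst and Lefty2 show the widest gaps between genotypes, Lefty1 and Tdgf1 overlap, and Inhba and Inhbb stay under 1 TPM.

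The ligand genes divided into a moderately expressed pair, Nodal and Gdf3, and activin subunits near the bottom of the measurable range. Nodal (ENSMUSG00000037171.6; GRCm38 chromosome 10, 61417972 to 61425338, 3 exons) was at 48.1 and 52.7 TPM in Stk40-/- cells, against 56.5 and 61.6 TPM in wild-type cells. The Stk40-/- libraries were the lower ones, by a narrow margin and without overlap. The means were 50.4 ± 3.30 and 59.0 ± 3.62 TPM in that order (SD, n = 2 each), a ratio of 0.854. The log2 fold change was -0.22 (SE 0.11, 95% interval -0.51 to 0.065, limma adjusted p = 0.520), so the interval includes no difference.

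Gdf3 (ENSMUSG00000030117.5; chromosome 6, 122605403 to 122610087, 2 exons) encodes a ligand of the same family that, like Nodal, signals with the Tdgf1 product. It was at 33.6 and 27.2 TPM in Stk40-/- cells, against 23.4 and 24.0 TPM in wild-type cells. The Stk40-/- libraries were the higher ones without overlap, and library 1 was well above library 2. The log2 fold change was 0.34 (SE 0.15, 95% interval -0.057 to 0.74, limma adjusted p = 0.498), and it was 0.19 without Stk40-/- library 1. Within each library Gdf3 stood at 0.699 and 0.516 of the Nodal level in Stk40-/- cells and at 0.414 and 0.389 of it in wild-type cells. An exact two-sided permutation test of 2 against 2 libraries cannot give a p under 0.33, so such ratios are given per library with no call.

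Activin subunit transcripts were scarce in every library. Inhba (ENSMUSG00000041324.14; chromosome 13, 16011851 to 16031621), which encodes the beta A subunit, was at 0.405 and 0.192 TPM in Stk40-/- cells and at 0.106 and 0.659 TPM in wild-type cells, with overlapping groups. Inhbb (ENSMUSG00000037035.5; chromosome 1, 119415465 to 119422248), which encodes the beta B subunit, was listed at 0 and 0.131 TPM in Stk40-/- cells and at 0 and 0.510 TPM in wild-type cells. Where all genes above 0 TPM were tested, the log2 fold change was -0.065 for Inhba (limma adjusted p = 0.944) and -0.21 for Inhbb (limma adjusted p = 0.769). With so few transcripts a difference between genotypes was not detectable, and none is shown to be absent.

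The co-receptor gene Tdgf1 (ENSMUSG00000032494.12; chromosome 9, 110939603 to 110946158, 6 exons) was at 249 and 185 TPM in Stk40-/- cells, against 257 and 201 TPM in wild-type cells. The groups overlapped, and library 1 was above library 2 in both genotypes. The log2 difference of library 2 from library 1 was -0.43 in Stk40-/- and -0.36 in wild-type cells, against a fold change between genotypes of -0.080 (SE 0.20, 95% interval -0.62 to 0.46, limma adjusted p = 0.900). The sign of this fold change was positive when Stk40-/- library 2 (0.13) or wild-type library 1 (0.098) was dropped. Both processed pseudogenes named after Tdgf1 were listed at 0 TPM in all 4 libraries.

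**Figure D2:**
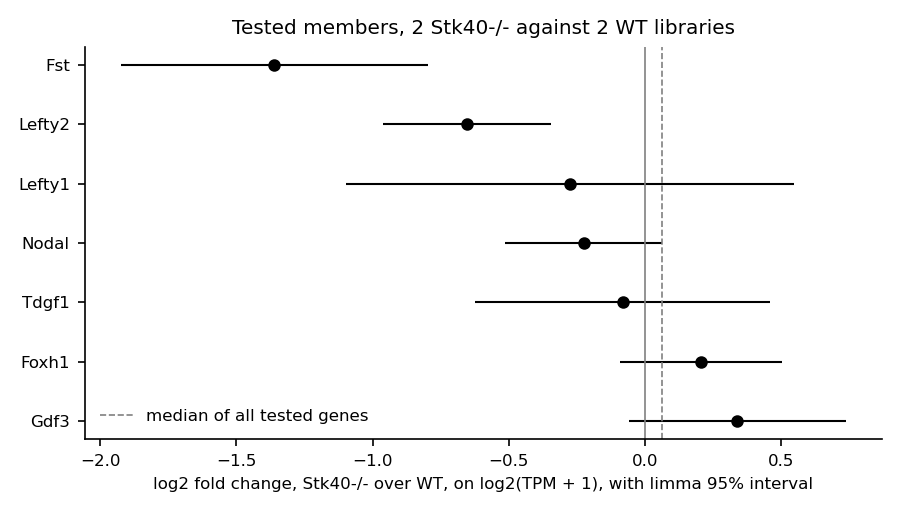
Log2 fold changes of the 7 tested genes, Stk40-/- over wild type, on the log2(TPM + 1) scale. Points are limma estimates from 2 against 2 libraries, lines their 95% intervals, and the dashed line the median of all tested genes (0.065). Only the unadjusted intervals of Fst and Lefty2 lie apart from 0.

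The antagonist genes Fst and Lefty2 held the widest differences between genotypes among the 7 tested genes, and the antagonist gene Lefty1 overlapped. Lefty1 (ENSMUSG00000038793.8; chromosome 1, 180935022 to 180938400, 4 exons) and Lefty2 (ENSMUSG00000066652.5; chromosome 1, 180893108 to 180899103, 4 exons) are neighbours with 35918 bases between them. Their coding sequences align without gaps over 1104 bases, of which 1014 are identical (91.8%). Because the values were estimated from reads, the sequences bear on how far the Lefty genes can be told apart. The stretch below shows the 100 aligned coding bases in which they differ most (bases 39 to 138 from the start codon, GENCODE vM21), in lower case where identical, with capitals at the 30 bases that differ.
Lefty1: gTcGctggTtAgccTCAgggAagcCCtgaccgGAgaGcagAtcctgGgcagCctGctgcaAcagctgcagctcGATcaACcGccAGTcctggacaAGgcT
Lefty2: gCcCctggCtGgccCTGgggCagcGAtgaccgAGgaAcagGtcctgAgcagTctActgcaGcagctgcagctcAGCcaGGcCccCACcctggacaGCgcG
Per the labels, reads were pairs of 100 or of 150 bases, and the length used for any given library is not stated in these sources. Of the 2374 windows of 100 bases in the Lefty2 transcript 73 (3.07%) also occur in the Lefty1 transcript, and of the 2324 windows of 150 bases 0 do. A read whose sequence both transcripts hold does not by itself tell which gene it came from. These counts cover exact matches between the transcripts compared. How certain the division of reads between these genes was in the deposited values was not measured.

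Lefty1 was at 169 and 250 TPM in Stk40-/- cells, against 198 and 314 TPM in wild-type cells. The groups overlapped, and library 2 was the higher one in both genotypes. The log2 difference of library 2 from library 1 was 0.56 in Stk40-/- and 0.67 in wild-type cells, wider than the fold change between genotypes of -0.27 (SE 0.30, 95% interval -1.10 to 0.55, limma adjusted p = 0.737). With 1 library left out that fold change lay on either side of 0, from -0.61 when wild-type library 1 was dropped to 0.059 when wild-type library 2 was dropped.

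Lefty2 was at 57.3 and 61.5 TPM in Stk40-/- cells, against 101 and 87.0 TPM in wild-type cells. The Stk40-/- libraries were clearly the lower ones, and the spread within a genotype was small. The means were 59.4 ± 2.96 and 94.1 ± 10.0 TPM in that order (SD, n = 2 each), a ratio of 0.631. The log2 fold change was -0.65 (SE 0.11, 95% interval -0.96 to -0.34, limma adjusted p = 0.290 over all genes). With 1 library left out it ranged from -0.76 to -0.54. The sum of Lefty1 and Lefty2, chosen after seeing the data, depends less on how reads were divided, though not wholly, since the transcripts differ in length. It was 226 and 312 TPM in Stk40-/- cells and 299 and 401 TPM in wild-type cells. The summed libraries overlapped, with a log2 fold change of -0.38 (SE 0.22, limma adjusted p = 0.587).

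Both Lefty genes had a higher transcript level than Nodal in every library. Lefty1 stood at 3.52 and 4.75 times the Nodal level in Stk40-/- libraries and at 3.50 and 5.10 times in wild-type libraries. Lefty2 stood at 1.19 and 1.17 times the Nodal level in Stk40-/- libraries, against 1.79 and 1.41 times in wild-type libraries. The Lefty2 ratio was the lower one in Stk40-/- cells without overlap, and the Lefty1 ratio overlapped. The ratio of Lefty2 to Lefty1 was 0.339 and 0.245 in Stk40-/- cells and 0.512 and 0.277 in wild-type cells, so that wild-type library 1 stood apart and the groups overlapped.

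**Figure D3:**
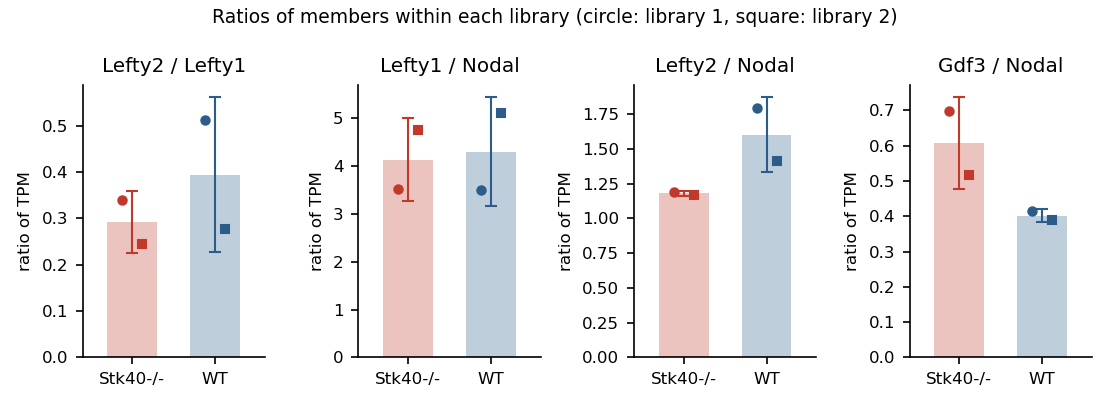
Ratios of TPM between members within each library, on axes that start at 0, with Stk40-/- to the left of wild type (WT). Bars are means, lines the SD of 2 libraries, circles and squares libraries 1 and 2. Lefty2 per Nodal lies lower and Gdf3 per Nodal higher in both Stk40-/- libraries, while the other ratios overlap.

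Fst (ENSMUSG00000021765.7; chromosome 13, 114452290 to 114458951) had the largest fold change of the 7 tested genes. It was at 40.3 and 35.9 TPM in Stk40-/- cells, against 120 and 82.3 TPM in wild-type cells. Both Stk40-/- libraries were far below the lower wild-type library, and wild-type library 1 was the highest of all. The means were 38.1 ± 3.11 and 101 ± 26.4 TPM in that order (SD, n = 2 each), a ratio of 0.377. The log2 fold change was -1.36 (SE 0.21, 95% interval -1.92 to -0.80, limma adjusted p = 0.265 over all genes). Leaving out wild-type library 1 gave -1.09, and leaving out wild-type library 2 gave -1.63. The activins that follistatin binds had subunit transcripts under 1 TPM in the same libraries, as given above. What follistatin bound in these cultures was not measured.

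Some markers of several cell types were, like Fst and Lefty2, lower in both Stk40-/- libraries. Of 7 tested streak and mesoderm markers 6 were lower in both Stk40-/- libraries than in both wild-type libraries and 1 overlapped, and of 5 tested feeder fibroblast genes 4 were lower and 1 overlapped, beside 16.6% of all tested genes lower without overlap. Wild-type library 1, which held the most Fst and Lefty2, also held the highest streak (1271 TPM) and trophoblast (750 TPM) sums. Most of the streak sum was T, and most of the trophoblast sum was Krt8. Of 5 tested trophoblast genes 3 were lower without overlap and 2 overlapped. The highest feeder (42.0 TPM), definitive endoderm (10.5 TPM) and extraembryonic endoderm (11.4 TPM) sums were in wild-type library 2. Of 3 tested definitive endoderm genes 1 was lower without overlap and 2 overlapped. Of 2 tested extraembryonic endoderm genes 1 was lower and 1 overlapped, and the extraembryonic endoderm sums overlapped between genotypes. The part of these cells in the levels of Fst and Lefty2 was not tested. In bulk RNA, fewer cells of a type and less RNA per cell cannot be told apart.

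Foxh1 (ENSMUSG00000033837.4; chromosome 15, 76668225 to 76669948, 3 exons) encodes a forkhead factor that carries SMAD2 and SMAD3 to their target genes. It was at 81.6 and 88.4 TPM in Stk40-/- cells, against 68.7 and 78.6 TPM in wild-type cells. The Stk40-/- libraries were the higher ones, with a gap between the groups no wider than the spread within them. The log2 fold change was 0.21 (SE 0.11, 95% interval -0.091 to 0.50, limma adjusted p = 0.561), and the groups overlapped after quantile normalization. The fold change was 0.11 when wild-type library 1 was dropped and 0.30 when wild-type library 2 was dropped. Gdf3 and Foxh1 were higher alongside the pluripotency, primed epiblast and neuroectoderm sums given above, although single pluripotency markers differed among themselves. Of 8 tested pluripotency markers 3 were higher without overlap, 1 (Zfp42) was lower and 4 overlapped. Of 5 tested primed epiblast markers 4 were higher and 1 (Dnmt3b) overlapped, and of 4 tested neuroectoderm markers 3 were higher and 1 (Nes) overlapped. The largest part of each of these sums came from a gene whose groups overlapped, namely Pou5f1, Dnmt3b and Nes. Over all tested genes 27.5% were higher without overlap. The part of cells with these markers in the levels of Gdf3 and Foxh1 was not tested.

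Counted together, 3 of the 7 tested genes (Nodal, Lefty2 and Fst) were lower in Stk40-/- cells with no overlap of libraries, as were 16.6% of all tested genes. Another 2 (Gdf3 and Foxh1) were higher in the same sense, as were 27.5% of all tested genes, and in the other 2 the groups overlapped. Groups that do not overlap were thus common throughout the table (44.0% in either direction). An unadjusted limma p under 0.05 was reached by 2 of the 7 genes, Lefty2 and Fst. The median log2 fold change of the 7 genes was -0.22, beside a median of 0.065 over all tested genes.

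**Figure D4:**
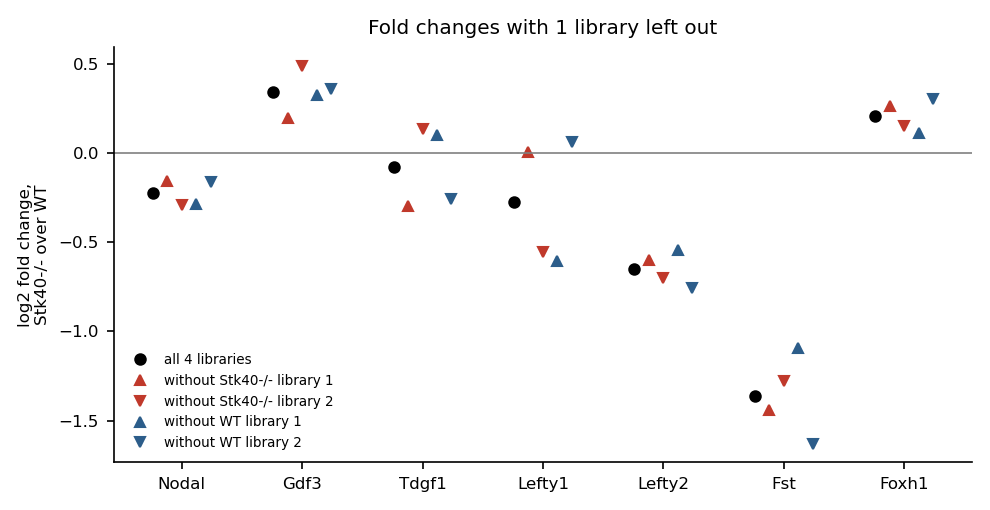
Log2 fold changes, Stk40-/- over wild type, of the 7 tested genes with all 4 libraries (black) and with 1 library left out (red for a Stk40-/- library, blue for a wild-type library). Fst runs from -1.63 to -1.09 and Lefty2 from -0.76 to -0.54, and the points of Lefty1 and Tdgf1 lie on both sides of 0.

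Most receptor genes of the pathway overlapped between the genotypes. Of 10 receptor and co-receptor genes 8 were tested, limma called 0 higher and 0 lower, 0 had an unadjusted p under 0.05, and 7 of 8 had overlapping groups (median log2 fold change 0.056, range -0.27 to 0.36). Over all tested genes 44.0% had groups that did not overlap, and 11.0% had an unadjusted limma p under 0.05. The type I receptor gene Acvr1b was at 12.4 and 13.7 TPM in Stk40-/- cells and at 11.9 and 12.7 TPM in wild-type cells. The type II receptor gene Acvr2a was at 9.24 and 7.71 TPM in Stk40-/- cells and at 9.60 and 8.28 TPM in wild-type cells. Acvr2b, the other activin type II receptor gene, was at 13.9 and 12.8 TPM in Stk40-/- cells, above the 10.7 and 9.66 TPM of wild-type cells (log2 fold change 0.36, SE 0.15, limma adjusted p = 0.491). Bambi, which encodes a pseudoreceptor, had a log2 fold change of 0.21 (SE 0.31) and the co-receptor gene Tgfbr3 one of -0.27 (SE 0.35). Cfc1, the relative of Tdgf1, was at or under 0.212 TPM in every library.

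Of 12 ligand relatives and processing enzymes 7 were tested, and limma called 0 in either direction (median log2 fold change -0.22). Of these 0 had an unadjusted p under 0.05, beside 11.0% of all tested genes. Tgfb1 was at 4.18 and 4.19 TPM in Stk40-/- cells and at 12.8 and 6.01 TPM in wild-type cells, with wild-type library 1 well above the rest. Its log2 fold change was -0.92 (SE 0.38), and it was -0.44 when wild-type library 1 was dropped and -1.41 when wild-type library 2 was dropped. Gdf1, a Nodal partner in left-right patterning, was at 1.17 and 2.92 TPM in Stk40-/- cells and at 3.82 and 3.30 TPM in wild-type cells, and its value is uncertain because it shares a transcript with Cers1. Inha, the inhibin alpha subunit gene, was at 2.30 and 1.52 TPM in Stk40-/- cells and at 0.563 and 1.12 TPM in wild-type cells. Furin, whose protease matures the Nodal precursor, had 20.1 ± 5.18 TPM in Stk40-/- cells and 23.6 ± 6.59 TPM in wild-type cells (SD, n = 2 each), with overlapping groups.

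Of 11 other antagonist genes and related regulators 8 were tested, and limma called 0 in either direction. Of these 2 had an unadjusted p under 0.05, beside 11.0% of all tested genes. Fstl1, a follistatin-like gene, was at 48.0 and 42.6 TPM in Stk40-/- cells, against 56.7 and 56.6 TPM in wild-type cells (log2 fold change -0.32, SE 0.11, limma adjusted p = 0.439). Ltbp1, which encodes a matrix protein that binds latent TGF-beta, was at 13.7 and 13.5 TPM in Stk40-/- cells, against 7.52 and 10.5 TPM in wild-type cells (log2 fold change 0.56, SE 0.21, limma adjusted p = 0.451). Its fold change was 0.35 when wild-type library 1 was dropped. The BMP antagonist gene Nog had overlapping groups (4.76 ± 2.60 TPM in Stk40-/- and 7.16 ± 3.57 TPM in wild-type cells), and Nomo1 had 61.1 ± 3.01 and 65.3 ± 1.41 TPM in that order. Cer1, a secreted Nodal antagonist, was at 0 in both Stk40-/- libraries and at 0.113 and 0 TPM in wild-type libraries.

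All 18 SMAD transducers and nuclear partners were tested. Limma called 0 in either direction, and 1 had an unadjusted p under 0.05, beside 11.0% of all tested genes. Without overlap 6 were higher and 3 lower (median log2 fold change 0.16), near the shares over all tested genes of 27.5% higher and 16.6% lower. Smad2 was at 32.3 and 28.3 TPM in Stk40-/- cells and at 35.8 and 29.9 TPM in wild-type cells, and Smad4, the common partner, had 53.1 ± 0.505 and 54.1 ± 4.87 TPM in that order, both with overlapping groups. Smad3 was at 13.3 and 15.4 TPM in Stk40-/- cells, against 11.9 and 11.2 TPM in wild-type cells (log2 fold change 0.28, SE 0.15). Pmepa1, a feedback target whose product holds SMAD2 and SMAD3 away from the receptor, was at 8.49 and 8.20 TPM in Stk40-/- cells, against 4.65 and 4.09 TPM in wild-type cells (log2 fold change 0.80, SE 0.19, limma adjusted p = 0.382). Zfyve9, which encodes a SMAD anchor at endosomes, had a log2 fold change of 0.32, the ubiquitin ligase gene Smurf2 one of 0.22 and the corepressor gene Tgif2 one of -0.36, each without overlap of groups. Dropping wild-type library 1 gave -0.17 for Tgif2, dropping wild-type library 2 gave -0.55 for Tgif2 and 0.21 for Zfyve9, and dropping Stk40-/- library 2 gave 0.19 for Smad3.

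Genes known as Nodal or activin targets went both ways. Of 20 listed 16 were tested, with 6 higher and 6 lower without overlap and 7 at an unadjusted p under 0.05, while limma called 0 in either direction (median log2 fold change -0.073). Over all tested genes these shares were 27.5% higher, 16.6% lower and 11.0% at an unadjusted p under 0.05. Many listed targets were also counted above, such as T, Mixl1, Fgf8, Otx2 and Nanog as cell type markers. Pmepa1, Ltbp1, Smad7, Skil and Cer1 also stood in other pathway lists, so these counts are not separate from the earlier ones. Mixl1, a homeobox gene of the streak, was at 2.06 and 1.71 TPM in Stk40-/- cells and at 24.7 and 6.77 TPM in wild-type cells. Its log2 fold change of -2.29 was -1.43 when wild-type library 1 was dropped. Fgf8, a streak growth factor gene, was at 51.8 and 42.3 TPM in Stk40-/- cells, against 97.8 and 82.6 TPM in wild-type cells (log2 fold change -0.93, SE 0.15, limma adjusted p = 0.279). Otx2, a transcription factor of the anterior epiblast, was at 22.9 and 12.9 TPM in Stk40-/- cells, against 3.58 and 4.18 TPM in wild-type cells (log2 fold change 1.90, SE 0.32, limma adjusted p = 0.287). Nanog was at 219 and 166 TPM in Stk40-/- cells and at 113 and 132 TPM in wild-type cells. Eomes, a Nodal target needed for endoderm and early mesoderm in the mouse, was low and overlapped (2.67 ± 0.221 TPM in Stk40-/- and 3.14 ± 1.09 TPM in wild-type cells), and Gsc was under 0.16 TPM in every library.

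**Figure D5:**
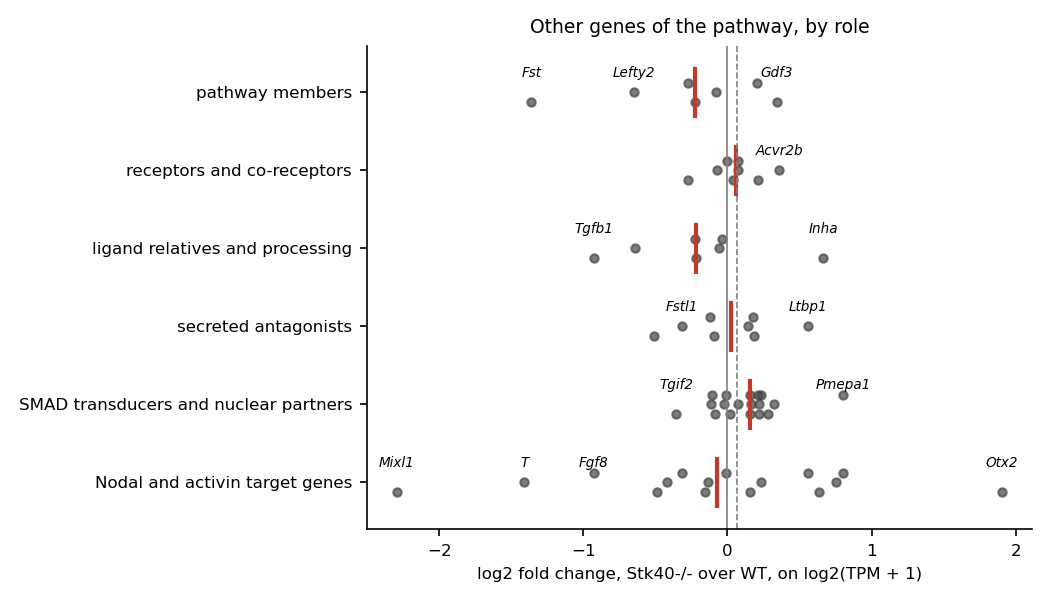
Log2 fold changes, Stk40-/- over wild type, of tested genes in 6 groups of the pathway. Each point is a gene, shown again in each group that lists it, red bars are group medians, and the dashed line is the median of all tested genes. The target genes spread widest, from -2.29 (Mixl1) to 1.90 (Otx2), and the receptors lie between -0.27 and 0.36. When wild-type library 1 is dropped, Mixl1 lies at -1.43.

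The profile of each tested gene over the 4 libraries was set against those of all 10897 genes that averaged 5 TPM or more, as the distance between log2(TPM + 1) values centred on each gene's mean. The genes closest to Fst were Praf2 (distance 0.15) and Wdr13 (0.24), and only 4 genes came within 0.25. Closest to Lefty2 were Hist1h4i (0.040) and Dppa4 (0.062), with 91 genes within 0.25. Closest to Lefty1 were Ppp1r10 (0.059) and Snord17 (0.10), with 33 within 0.25. For the other genes close profiles were common: 2335 genes came within 0.25 of Foxh1 (closest L3mbtl2 and Pfas), 1547 of Nodal (Nubp2 and Atp6v1f), 1189 of Gdf3 (Arl14ep and Gng12) and 561 of Tdgf1 (Agrn and Zswim6). Profiles were centred but not scaled, so a gene that varied more between libraries tends to have fewer genes within a fixed distance. The low counts of Fst and Lefty1 therefore do not show profiles of unusual shape. For Lefty1 the variation lay mainly between libraries 1 and 2 of each genotype.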

How the data were processed

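TPM values per gene in 4 mouse RNA sequencing libraries, 2 Stk40-/- and 2 wild type, were used as deposited by the authors. The tools named there, per the submitters' processing notes, were Salmon 0.8.2 and CASAVA 1.7, without settings. These notes name a human build although the gene IDs are mouse, so the annotation behind the values is unknown. Groups came from the sample titles, and 0 per-sample columns were left unused. TPM keeps no depth, and values within a library are relative to each other.

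The test was limma 3.58.1 in R 4.3.3 on log2(TPM + 1), over genes averaging 1 TPM or more (two-sided, empirical Bayes with an intensity trend, no replicate block, Benjamini-Hochberg adjustment), and the procedure was tested on simulated data. Positions came from GENCODE vM21 on GRCm38, in which 7 of the 9 IDs have the same version (not Fst and Foxh1). Coding sequences of the Lefty genes were aligned with biopython 1.88. Figures used matplotlib 3.10.9.

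The 9 genes, the lists and the tests were chosen with earlier results of these data known, so lists are described by counts and medians with no test. Named in the text are the 9 genes, Stk40, 12 pathway genes in any case, the 4 tested genes with the smallest unadjusted p per list (no gene passed), and the 2 closest profiles per gene. T, Mesp1, Kdr, Pdgfra, Tbx6, Msgn1, Pou5f1, Zfp42, Krt8, Dnmt3b and Nes are named from the marker lists after their values were seen. Smad7 and Skil are named only because lists share them. Alternatives were pseudocounts, filters, rescaling, quantile normalization, no trend, a replicate block and leaving out each library.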

Additional observations from a re-analysis of the deposited data

How the results depend on the processing

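Under the 12 other settings limma called 0 genes in each, with 996 to 2229 genes at an unadjusted p under 0.05 and smallest adjusted p values between 0.0694 (mean of at least 5 TPM) and 0.680 (without Stk40-/- library 1). The median log2 fold change of the tested members ran from -0.29 to -0.16 with 1 library left out and from -0.29 to -0.21 otherwise. The number of members with groups that do not overlap was 6 with any 1 library left out, where 68.9% to 72.6% of all genes do not overlap, and 4 after quantile normalization, where Foxh1 overlapped. The adjusted p of Fst ranged from 0.254 to 0.747 and that of Lefty2 from 0.261 to 0.747. Quantile normalization moved the median of all genes to 0.017. With the replicate block limma called 0 genes (smallest adjusted p = 0.262), the median of the members was -0.22, and Fst, Lefty2 and Lefty1 had limma adjusted p values of 0.277, 0.305 and 0.334. Deviations of libraries with the same number correlated at 0.089 across genes, and with 2 pairs the numbers are not shown to pair the libraries. Signs turned in 21 of 560 values of single genes, covering 14 genes, none of them called. After quantile normalization the log2 fold change of Acvr1b was -0.0072, and the cause was not tested. The others turned where a fit had fewer samples, with 1 library left out, and ran from -0.19 to 0.047 for Acvr2a, -0.30 to 0.16 for Agrn, -0.49 to 0.059 for Furin, -0.30 to 0.13 for Tdgf1, -0.42 to 0.12 for Eomes, -0.26 to 0.12 for Zswim6, -0.00013 to 0.42 for Bambi, -0.23 to 0.018 for Smad2, -0.61 to 0.059 for Lefty1, -0.54 to 0.056 for Snord17, -0.61 to 0.063 for Tgfbr3, -0.54 to 0.080 for Ppp1r10 and -0.11 to 0.068 for Smad4. Unknown depth limits the low genes most, Inhba and Inhbb among them.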
